A study of Mus musculus with 2 samples.

Results

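The 10 genes described here handle iron and answer oxidative stress: Hmox1, Slc40a1, Ftl1, Fth1, Tfrc, Slc7a11, Nqo1, Gclm, Txnrd1 and Srxn1. They were taken by symbol and are 10 of the 32589 genes in the count tables. The data are single-cell RNA-Seq UMI counts (unique molecular identifiers, each standing for 1 captured transcript) from tumor-bearing mouse livers with cholangiocarcinoma (CCA), in 2 libraries, 1 per group. Tumors had been induced by hydrodynamic tail vein injection of plasmids for the Notch intracellular domain and myristoylated AKT, which transfect hepatocytes. In both groups doxycycline from day 25 switched on shRNAs against Yap1 and Wwtr1 (genotype shYT), ubiquitously and not in tumor cells alone. The shYT_PBS group received PBS, and the shYT_antiPD1 group the anti–PD-1 clone RMP1-14 on days 26, 29 and 32; both were harvested on day 33. The comparison asks how levels of these genes differ when PD-1 is blocked in YAP/TAZ-depleted tumors; no group without shYT is compared. Age, sex, shRNA line and number of animals per library are not given by the labels.

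Iron enters most cells bound to transferrin through the receptor encoded by Tfrc, is stored in a shell of the ferritin chains FTH1 and FTL1, and leaves through ferroportin, encoded by Slc40a1. Kupffer cells, the resident macrophages of the liver, clear aged red cells, open the heme ring with heme oxygenase 1 (Hmox1) and return the iron to the blood through ferroportin. Most of the 10 genes are also targets of the transcription factor NRF2, which acts when KEAP1 is modified by electrophiles, and BACH1 represses several of them until it binds heme. Slc7a11 imports cystine, Gclm is a subunit of the first enzyme of glutathione synthesis, Txnrd1 reduces thioredoxin, Srxn1 repairs peroxiredoxins and Nqo1 reduces quinones.

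Iron regulatory proteins bind a hairpin in some of these transcripts when iron is scarce: at the start of a transcript it lowers translation, and in the 3′ UTR it protects the RNA from decay. The hairpins are shown because they separate members whose mRNA level can respond to iron through this route (Tfrc) from members where the route acts on translation, which UMI counts do not measure. On the transcript strand, the UTRs of the GENCODE vM21 annotation of GRCm38 (mm10) were searched for an unpaired C, 5 stem bases and the loop CAGTGN with a last base other than G, with the 5 bases after the loop pairing with the stem (G-T pairs allowed). Of 21901 protein-coding genes, 0.105% held it in the 5′ UTR and 0.457% in the 3′ UTR. Among the members 4 held it and 6 did not. Capitals mark the unpaired C and the loop, and each line gives 30 bases.
Slc40a1, 5′ UTR, chr1:45925464-45925493, minus strand: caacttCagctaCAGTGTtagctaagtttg
Ftl1, 5′ UTR, chr7:45459778-45459807, minus strand: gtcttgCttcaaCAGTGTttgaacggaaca
Fth1, 5′ UTR, chr19:9982732-9982761, plus strand: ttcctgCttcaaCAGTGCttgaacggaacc
Tfrc, 3′ UTR, chr16:32631219-32631248, plus strand: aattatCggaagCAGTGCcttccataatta
Tfrc, 3′ UTR, chr16:32631598-32631627, plus strand: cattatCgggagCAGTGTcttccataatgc
Tfrc, 3′ UTR, chr16:32631663-32631692, plus strand: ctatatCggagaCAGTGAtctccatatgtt
Tfrc, 3′ UTR, chr16:32631710-32631739, plus strand: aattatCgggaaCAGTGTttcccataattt
Tfrc held 4 copies, while Slc40a1, Ftl1 and Fth1 held 1 each, that of Fth1 in the 5′ UTR of an annotated transcript.

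After the limits of the study's methods (500 to 5000 detected genes, at most 10% mitochondrial UMIs), 15531 PBS cells (79090376 UMIs, median 3159 per cell) and 16360 anti–PD-1 cells (77674743 UMIs, median 2990) were kept. Of all barcodes, 219 occurred in both libraries. Cells were gated by fixed marker genes into 18 classes, of which 10 had at least 200 cells in both libraries; class names below stand for "like" the named type. The cells gated by monocyte markers were led by Mpo, Elane, Chil3 and Prtn3, genes of granulocyte and monocyte precursors among them, so they are called Ly6c2/Ccr2-gated cells. That name is short for a gate on Ly6c2, Ccr2, Plac8, F13a1, Vcan and Chil3. A cell needed at least 2 of these markers, and neither Ly6c2 nor Ccr2 was required. The Kupffer gate was led by Marco, Fcna and Timd4 and the tumor or biliary epithelial gate by the keratins Krt18 and Krt8, with Sox9 among its leading genes. All of these but Fcna are markers of their own gate. Their lead therefore follows from the gating and is no separate support for the class names. Xist, the RNA of the inactive X chromosome, was at 233 CPM (UMIs of a gene per 1e+06 UMIs) in PBS and 0.14 CPM in anti–PD-1 over all kept cells. The PBS library thus held cells with Xist and cells with Y-linked UMIs while the anti–PD-1 library held almost only the latter, and values were also computed within cells that had Y-linked UMIs but none of Xist, called Y-linked cells below. Outside these cells, sex and treatment cannot be told apart in any comparison here. Within them, treatment still cannot be told apart from the library. The label rests on captured UMIs, so PBS cells may be misplaced by missed or free RNA. Over all kept cells the targeted genes had 3.38 and 1.70 CPM (Yap1) and 10.4 and 2.56 CPM (Wwtr1) in PBS and anti–PD-1. Both groups carry the shRNAs. Yap1 was not lower with anti–PD-1 in tumor or biliary epithelial cells (8.81 and 10.7 CPM) or cancer-associated fibroblasts (21.3 and 23.5 CPM). Wwtr1 was lower in both, with 11.3 and 7.54 CPM in the former and 94.7 and 64.6 CPM in the latter. In Kupffer cells each gene was at 1.22 and 0.68 CPM, from 5 and 6 UMIs. Macrophages had 0.76 and 0.67 CPM of Yap1 (24 and 12 UMIs) and 1.24 and 0.50 CPM of Wwtr1 (39 and 9 UMIs). The 95% counting intervals of the 2 libraries overlapped in each case, so no direction is read from these levels. The part of cell make-up in the pooled values was not tested.

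Values are CPM of the UMIs summed per library and class. Ratios are log2((CPM + 5)/(CPM + 5)), anti–PD-1 over PBS. The brackets hold 95% intervals (exact Poisson for levels, Clopper-Pearson on the split of UMIs for ratios) and cover counting error only. With 1 library per group there is no replicate error and no test, so a difference is between these 2 libraries. The median over all measured genes lay between -0.28 (neutrophils) and -0.01 (CAFs, cancer-associated fibroblasts), the shift against which ratios are to be read. A member was measured in a class with at least 20 UMIs over both libraries, which held for 90 member and class pairs. Of these, 27 had an interval above 0, where 13.1% of all measured gene and class pairs did, and 30 below 0, where 28.9% did. The width of an interval depends on a gene's UMIs, so these shares compare genes of unlike abundance.

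The difference past 2-fold, in either direction, was taken on the ratio with 5 CPM added and was reached by 3 pairs. It was reached by 1 of 9 measured members in NK cells (Tfrc), where 4.34% of all measured genes reached it, by 1 of 9 in tumor or biliary epithelial cells (Hmox1; 4.43% of genes) and by 1 of 9 in Ly6c2/Ccr2-gated cells (Hmox1; 4.41%). In T cells (1.89%), B cells (3.71%), neutrophils (6.66%), macrophages (2.6%), Kupffer cells (2.07%), dendritic cells (4.52%) and CAFs (6.02%), 0 members reached it. With 8 to 10 members measured per class, these counts do not set the members apart from other genes. On plain CPM, without the added 5, other pairs also passed 2-fold, such as Tfrc in T cells at 23.2 and 51.1 CPM. The plot of levels and the plot of ratios show all members in the 10 classes.

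**Figure D1:**
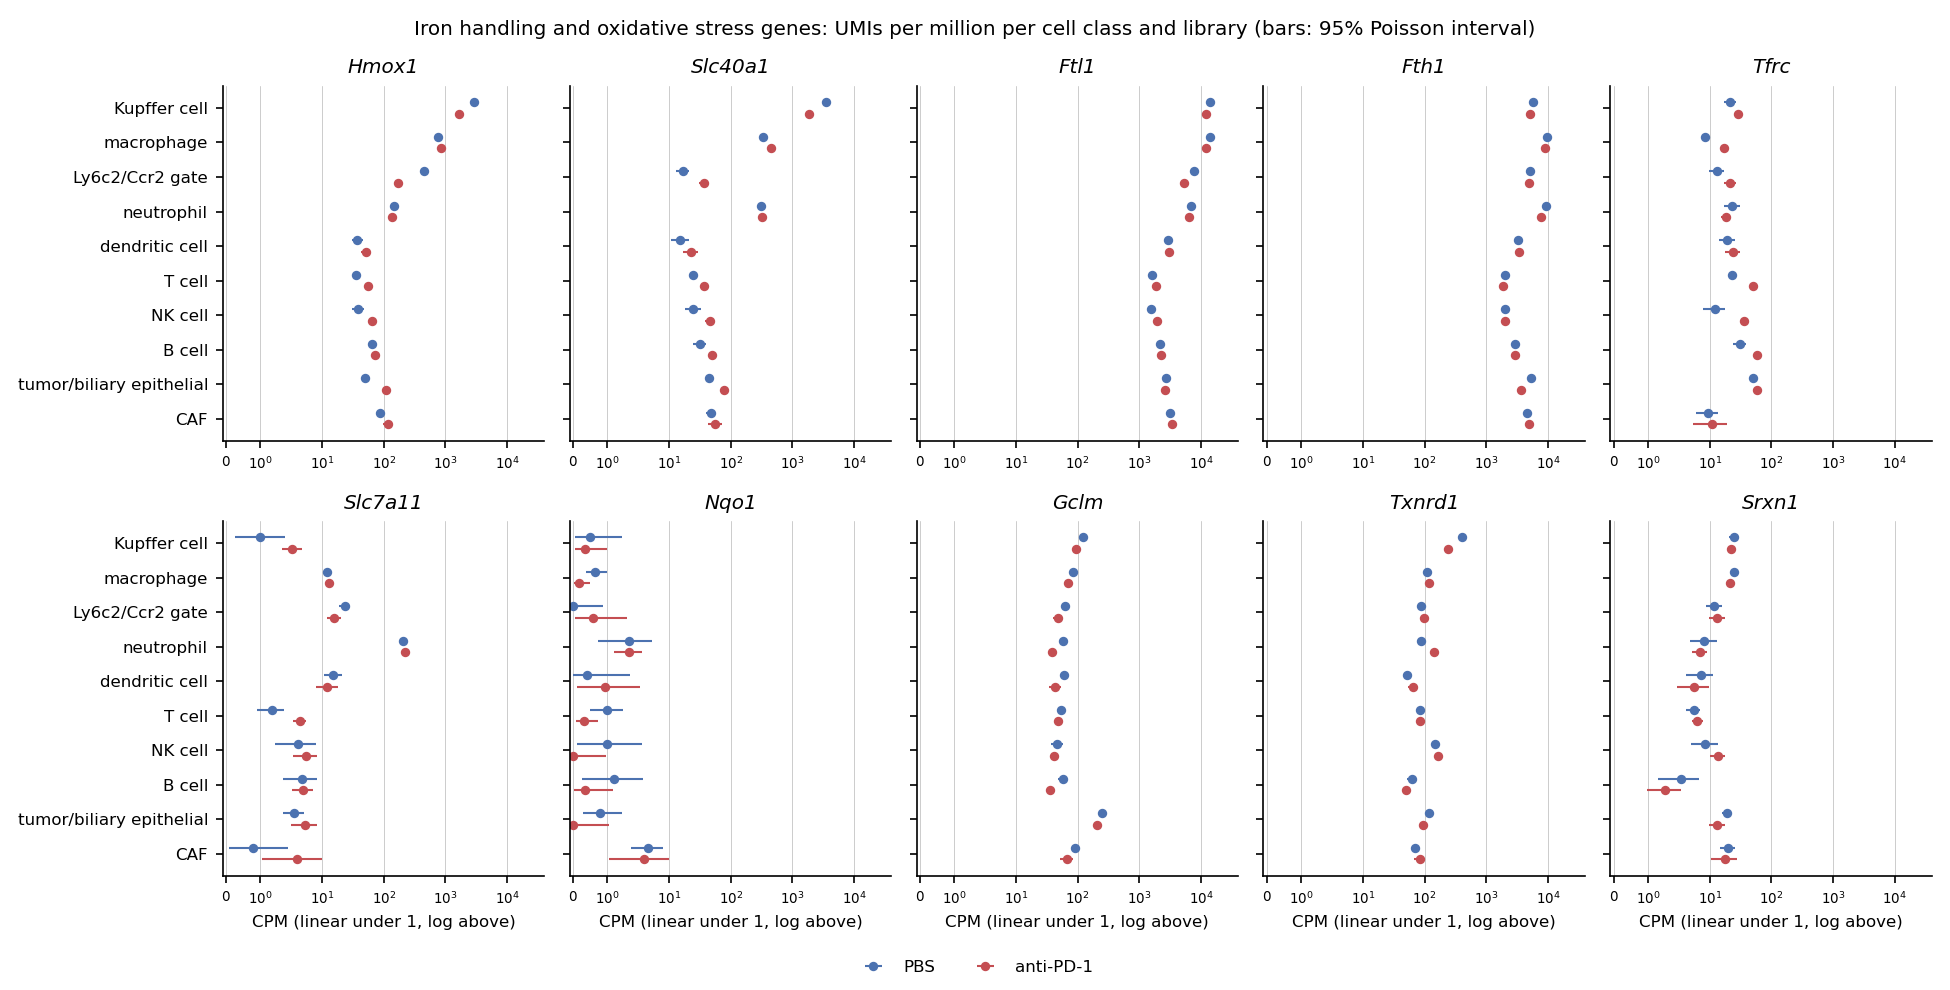
Level of each gene in CPM (horizontal axis, linear under 1 and logarithmic above) in 10 marker-gated classes (rows), PBS in blue and anti–PD-1 in red, with 95% Poisson intervals. Hmox1 and Slc40a1 were highest in Kupffer cells, at 2917 and 3565 CPM in PBS, Slc7a11 in neutrophils and Gclm in tumor or biliary epithelial cells.

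Kupffer cells held the highest Hmox1 (chr8:75093621-75100589, plus strand) and Slc40a1 (chr1:45908068-45926523, minus strand) levels of any compared class in both libraries, and both were lower with anti–PD-1. The PBS levels of Hmox1 followed the order Kupffer cells, macrophages, Ly6c2/Ccr2-gated cells and neutrophils with intervals apart, and the neighbours in the order of the other 6 classes had overlapping intervals. Hmox1 was at 2917 CPM (2865 to 2969) in PBS and 1678 CPM (1651 to 1706) in anti–PD-1, with a log2 ratio of -0.80 (-0.83 to -0.76), or 1.74-fold lower. Slc40a1 was at 3565 CPM (3508 to 3624) and 1884 CPM (1856 to 1913), which gave a log2 ratio of -0.92 (-0.95 to -0.89), or 1.89-fold lower. The thioredoxin reductase gene Txnrd1 was also highest here and lower with anti–PD-1, at 404 and 237 CPM (log2 ratio -0.76, -0.85 to -0.67). These 3 members lay well below the class median over all genes of -0.09, while the ferritins lay near it: Ftl1 at -0.18 and Fth1 at -0.13.

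The Kupffer gate was made of different cells in the 2 libraries, so the 3 differences were also taken in narrower sets. Of the gated cells, 80.1% of 462 PBS cells but 58.3% of 1218 anti–PD-1 cells fell in the Leiden cluster named for Kupffer cells (cluster 5), while 20.7% of anti–PD-1 cells lay in a macrophage cluster and 11.99% in an epithelial cluster. Median UMIs per cell were 9227.5 and 6351.5. Within cluster 5 Hmox1 was at 2969 and 1792 CPM, Slc40a1 at 3719 and 2029 CPM, and Txnrd1 at 419 and 242 CPM. The differences were thus present within the cluster that held most of the gate in both libraries.

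Cells with all 6 Kupffer markers (362 PBS and 653 anti–PD-1, median 10378 and 11079 UMIs) gave 2970 and 1775 CPM for Hmox1, 3722 and 2069 CPM for Slc40a1 and 416 and 242 CPM for Txnrd1. In these cells Clec4f, a lectin of Kupffer cells, was at 7138 and 6081 CPM, a log2 ratio of -0.23 against -0.74 for Hmox1 and -0.85 for Slc40a1. Cells with 5 markers (37 and 122) gave Hmox1 at 2999 and 1766 CPM and Slc40a1 at 1955 and 1328 CPM. With 2 to 4 markers, where each step held 21 PBS cells, Hmox1 and Slc40a1 ratio intervals were wide and Txnrd1 pointed both ways, for example 97.1 and 354 CPM at 4 markers. Among these steps Slc40a1 was lower at 3 markers (-1.09, -1.797 to -0.32) and Hmox1 at 4 markers (-0.49, -0.90 to -0.06), and the other Hmox1 and Slc40a1 intervals held 0. They also stood in cells with a UMI of Timd4, a receptor of embryonically derived Kupffer cells (log2 ratio -0.76 for Hmox1, -0.88 for Slc40a1 and -0.75 for Txnrd1 in 401 and 847 cells), and in the Y-linked cells (-1.09, -0.73 and -0.97 in 80 and 633 cells).

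**Figure D2:**
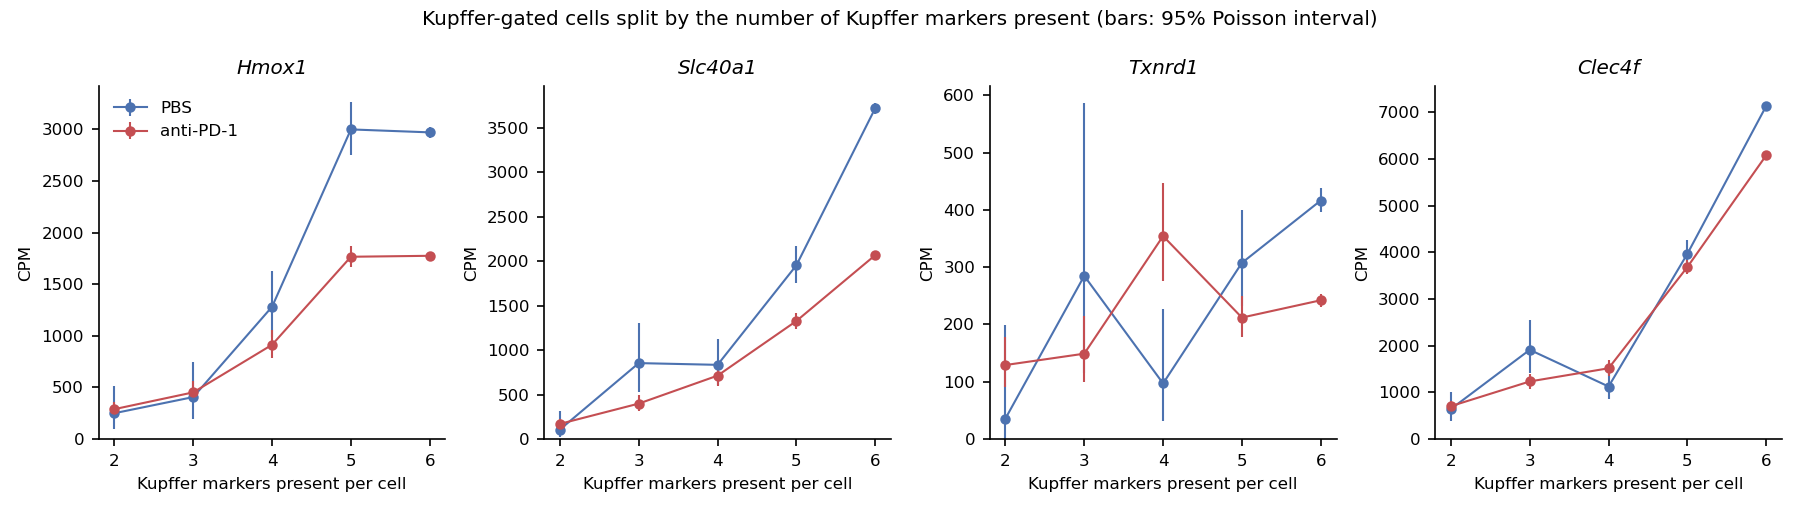
CPM of Hmox1, Slc40a1, Txnrd1 and the Kupffer gene Clec4f (vertical axes, from 0) in Kupffer-gated cells split by how many of the 6 Kupffer markers a cell held (horizontal axis), PBS in blue and anti–PD-1 in red, with 95% Poisson intervals. At 5 and 6 markers the PBS points of Hmox1 (2999 and 2970 CPM) lie above the anti–PD-1 points (1766 and 1775 CPM).

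Cell by cell, the median Kupffer-gated cell held 17.1 Hmox1 UMIs per 10000 UMIs in PBS and 7.51 in anti–PD-1, and 31.7 and 11.5 Slc40a1 UMIs. The 90th percentile was 63.1 and 35.7 for Hmox1 and 58.4 and 29.8 for Slc40a1. The 25th percentile was 6.72 and 0 for Hmox1 and 17.3 and 0 for Slc40a1. These percentiles, and the shares below, cover the whole gate. In it, cells with 2, 3 and 4 Kupffer markers numbered 21 each in PBS and 201, 139 and 103 in anti–PD-1. The part of this make-up in the per-cell differences was not tested. In cells thinned to 1000 UMIs (441 PBS and 1003 anti–PD-1 cells, 21 and 215 shallower cells left out), Hmox1 was seen in 74.4% (70.0 to 78.4) and 57.5% (54.4 to 60.6), Slc40a1 in 87.1% and 66.9%, and Txnrd1 in 30.4% and 19.6%. Without thinning the shares were 90.7% and 72.1% for Hmox1, 92.0% and 74.0% for Slc40a1 and 76.4% and 54.2% for Txnrd1. T cells, taken as a class in which both genes should be low, gave thinned shares of 3.18% and 5.86% for Hmox1 and 2.04% and 3.65% for Slc40a1, at median depths of 2705 and 3572 UMIs. The Kupffer shares were above the T cell shares in both libraries.

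**Figure D3:**
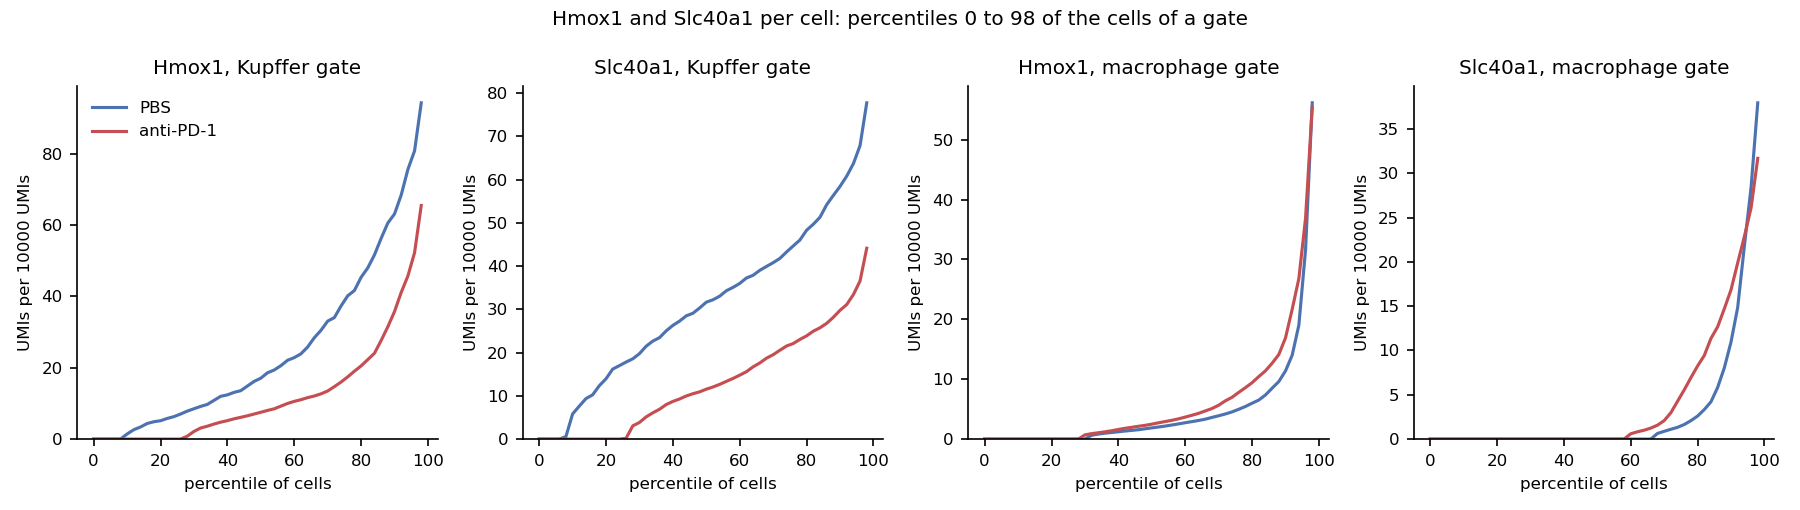
UMIs per 10000 UMIs of the cell (vertical axes, from 0) at percentiles 0 to 98 of cells (horizontal axes) for Hmox1 and Slc40a1 in the Kupffer gate and in the macrophage gate, PBS in blue and anti–PD-1 in red. In the whole Kupffer gate the PBS line runs above the anti–PD-1 line from about the 10th percentile on, with medians of 17.1 and 7.51 for Hmox1. The make-up of the gate differed between the libraries.

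Other genes that mark Kupffer cells or take up heme and hemoglobin were also lower in the gate. Vsig4, a complement receptor, was at 3782 and 2325 CPM (log2 ratio -0.70) and Cd163, the receptor for hemoglobin bound to haptoglobin, at 516 and 348 CPM (-0.56). The heme importer Slc48a1 was at 318 and 241 CPM (-0.39). Timd4 (0.01) and Spic (0.11), a transcription factor of iron-recycling macrophages, were not lower. Whether the lower Hmox1, Slc40a1 and Txnrd1 levels and these differences share a source was not tested.

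In macrophages Hmox1 and Slc40a1 were higher with anti–PD-1 as gated, and the direction turned in some other sets of cells. Hmox1 was at 747 CPM (738 to 757) and 859 CPM (845 to 872), at a log2 ratio of 0.20, and Slc40a1 at 332 and 442 CPM, a ratio of 0.41; with classes taken from Leiden clusters instead of the gate they were -0.48 and -0.25. The largest part of the gate's cells came from cluster 3 in PBS (69.2%) and from cluster 12 in anti–PD-1 (39.3%), with another 19.2% of anti–PD-1 cells in the Kupffer cluster. The summed level of the 6 Kupffer markers, none of them at 0, was 1589 CPM in PBS and 3519 CPM in anti–PD-1. Macrophages with no Kupffer marker present (2753 and 961 cells) gave 538 and 607 CPM for Hmox1 (0.17) but 70.2 and 63.0 CPM for Slc40a1 (-0.15). In Y-linked macrophages both were higher (0.08 and 0.25). With 1 or more Kupffer markers (954 and 1201 cells) both were lower with anti–PD-1, at -0.31 for Hmox1 and -0.44 for Slc40a1. The higher Slc40a1 level of the whole gate was therefore seen in neither subset by marker content.

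The Ly6c2/Ccr2-gated cells held the lowest Hmox1 ratio of any class, and it was not the same in all cells. Hmox1 was at 448 CPM (428 to 468) in PBS and 170 CPM (157 to 184) in anti–PD-1, for a log2 ratio of -1.37 (-1.50 to -1.24). In cells without a UMI of Elane, Mpo, Prtn3 or Ctsg, proteases and a peroxidase of granule-forming precursors, the ratio was -1.06, and in cells with one it was -1.88. In the Y-linked cells of the gate the direction reversed, at 103 and 146 CPM (0.48, -0.03 to 1.02; from 32 UMIs of 47 PBS cells and 342 UMIs of 292 anti–PD-1 cells). Within the PBS library alone, Hmox1 was at 524 CPM in 308 Xist cells and at 103 CPM in the 47 Y-linked cells. With classes taken from Leiden clusters instead of the gate the ratio was -0.10 (-0.15 to -0.05), which ends the 2-fold difference. The difference between the groups cannot be told apart from the difference between the 2 kinds of PBS cells. The gate's own markers differed too: Chil3 was at 5683 and 1545 CPM, Ccr2 at 792 and 333 CPM, and Ly6c2 at 1361 and 3597 CPM.

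Slc40a1 in the Ly6c2/Ccr2-gated cells was at 16.5 and 36.3 CPM (log2 ratio 0.94, 0.58 to 1.29). The ratio was 0.34 (0.07 to 0.61) with Leiden classes and 0.52 (-0.44 to 1.53) in Y-linked cells. Clec4f, which these cells should lack, was at 21.3 and 83.5 CPM there, and the 6 Kupffer markers summed to 76.0 and 261 CPM with none at 0. Slc40a1 per Clec4f was 0.78 and 0.43 there, against 0.52 and 0.34 in Kupffer cells. Per C1qb, a macrophage marker, Slc40a1 was 0.02 and 0.05 there, against 0.44 and 0.25 in Kupffer cells. The part of free Kupffer RNA in this difference was not tested.

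Droplets also catch RNA that other cells released, and the ratio to Clec4f was taken in the other classes too. In T, NK, B and dendritic cells Slc40a1 per Clec4f was 0.60 to 0.68 in PBS and 0.32 to 0.40 in anti–PD-1, with Slc40a1 levels of 15.1 to 31.4 CPM in PBS and 22.5 to 50.3 CPM in anti–PD-1. Clec4f itself in T cells was at 41.2 and 104 CPM. Hmox1 in these classes was at 35.8 to 65.0 CPM in PBS and 52.1 to 72.4 CPM in anti–PD-1, with log2 ratios of 0.59 in T cells and 0.66 in NK cells. Per Clec4f it was 0.87 to 1.65 in PBS and 0.54 to 0.75 in anti–PD-1, against 0.43 and 0.30 in Kupffer cells. Per C1qb both genes were higher with anti–PD-1 in each of these classes. Hmox1 per C1qb was 0.12 to 0.23 in PBS and 0.19 to 0.25 in anti–PD-1. Slc40a1 per C1qb was 0.06 to 0.11 in PBS and 0.11 to 0.15 in anti–PD-1. The part of free RNA in the levels of both genes in these classes was not tested.

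Neutrophils held more Slc40a1 per Clec4f than any other compared class. Slc40a1 was at 305 CPM (282 to 329) and 323 CPM (310 to 336) there, with 4.34 and 2.01 per Clec4f. The log2 ratio of 0.08 (-0.04 to 0.21) held 0, and the level was the third highest of the compared classes. Its interval in PBS overlapped that of macrophages (325 to 338 CPM) and in anti–PD-1 it did not.

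**Figure D4:**
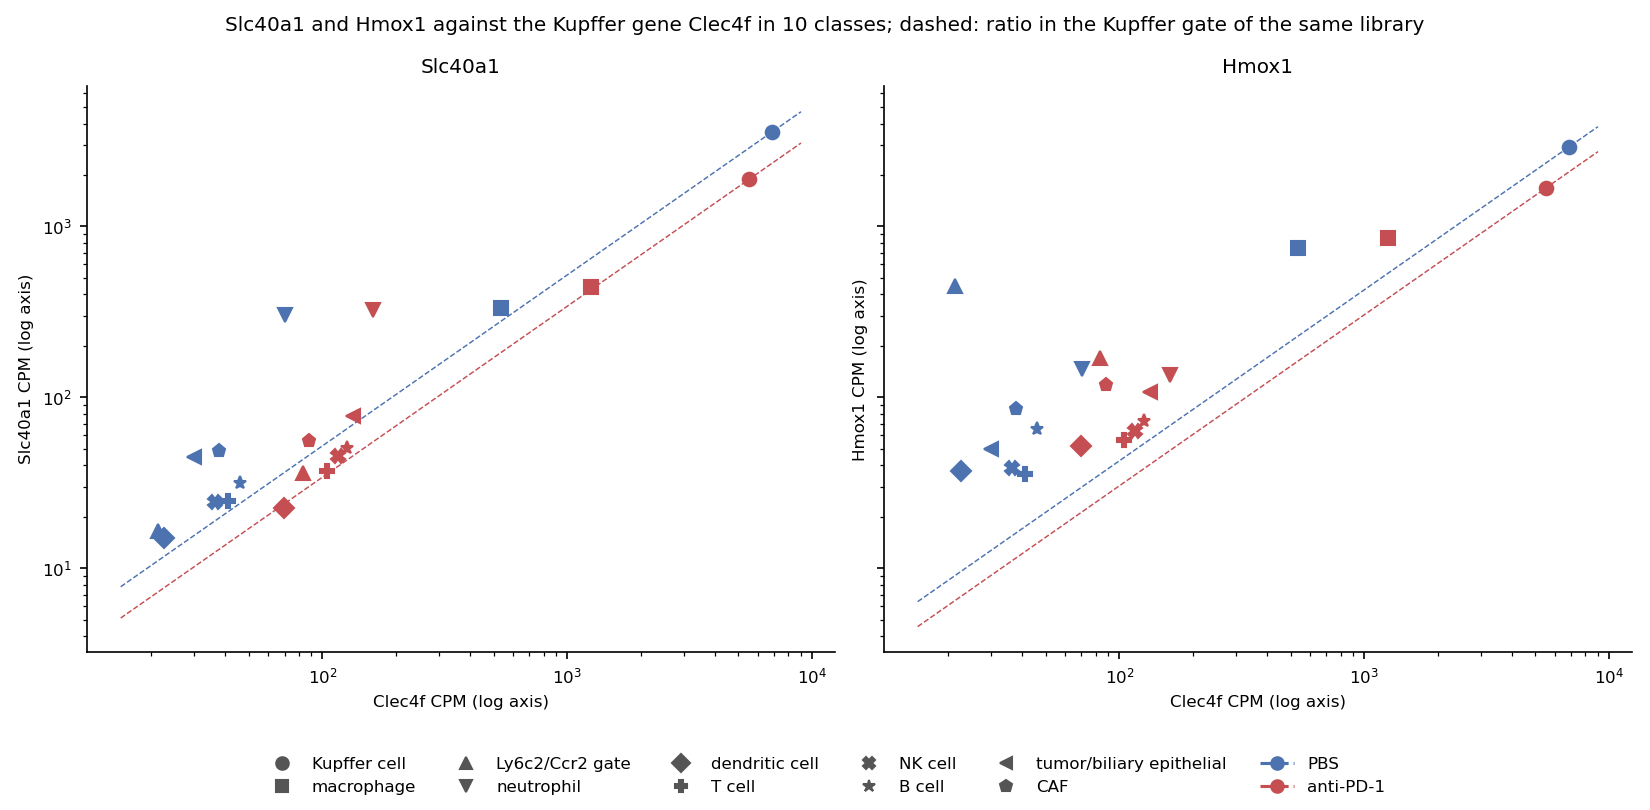
Slc40a1 (left) and Hmox1 (right) CPM against Clec4f CPM in the 10 classes (both axes logarithmic), PBS in blue and anti–PD-1 in red, with the ratio of the Kupffer gate of each library as a dashed line. Lymphocytes and dendritic cells lie close to the Slc40a1 line, while neutrophils lie above it at 305 and 323 CPM.

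In tumor or biliary epithelial cells Hmox1 was at 49.8 CPM (44.9 to 55.1) and 107 CPM (96.6 to 119), giving a log2 ratio of 1.03 (0.84 to 1.23), and Slc40a1 at 44.6 and 77.7 CPM (0.74, 0.52 to 0.96). Clec4f was higher beside them, at 29.97 and 134 CPM, and the 6 Kupffer markers, none at 0, summed to 88.9 and 378 CPM. Hmox1 per Clec4f was 1.66 and 0.80, and Slc40a1 per Clec4f 1.49 and 0.58. Per C1qb the direction was the other way, at 0.21 and 0.31 for Hmox1 and 0.19 and 0.22 for Slc40a1. The part of free Kupffer or macrophage RNA in the Hmox1 and Slc40a1 differences was not tested. Among Y-linked cells the ratio was 0.80 for Hmox1 (0.29 to 1.32) and -0.10 for Slc40a1, and with no upper limit on detected genes Hmox1 was at 0.40 (0.27 to 0.53); both Hmox1 values end the 2-fold difference, as does 0.88 with at most 20% mitochondrial UMIs.

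The ferritin genes stayed within 2-fold between the libraries in all 10 classes. Ftl1, the light chain, was highest in macrophages and Kupffer cells, at 13895 and 13822 CPM in PBS and 12047 and 12175 CPM in anti–PD-1. Its ratio was lowest in Ly6c2/Ccr2-gated cells (7714 and 5350 CPM, -0.53, but -0.14 with Leiden classes and 0.07 in Y-linked cells) and highest in NK cells (1563 and 1916 CPM, 0.29). Fth1, the heavy chain with ferroxidase activity, had its lowest ratio in tumor or biliary epithelial cells, at 5299 CPM (5248 to 5351) and 3631 CPM (3568 to 3695), or -0.54 (-0.57 to -0.52). Within the main epithelial cluster (73.0% and 80.1% of the gate) Fth1 was at 5738 and 3713 CPM. In the other classes Fth1 lay between -0.28 (neutrophils) and 0.11 (CAFs), and with median-of-ratios scaling its direction turned in T cells, neutrophils, Ly6c2/Ccr2-gated cells and macrophages, as did that of Ftl1 in neutrophils. In Y-linked cells Fth1 turned to 0.92 in Ly6c2/Ccr2-gated cells and to -0.30 in CAFs, and it also turned in the former after thinning (0.10) and in the latter with Leiden classes (-0.11). A near-identical copy, Ftl1-ps1, held 11983 and 11545 UMIs, so reads of Ftl1 may have been split.

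Tfrc, the uptake receptor with the 3′ UTR hairpins, was higher with anti–PD-1 in 9 of the 10 classes, with 6 intervals above 0, though not in dendritic cells after thinning (-0.61) or in Y-linked Kupffer cells and CAFs (-0.31 and -0.34). Among all measured genes, 24.7% (neutrophils) to 49.1% (CAFs) were higher per class. Over all kept cells Tfrc was at 18.3 and 34.5 CPM. In T cells it was at 23.2 CPM (20.4 to 26.2) and 51.1 CPM (47.7 to 54.7), or a log2 ratio of 0.99 (0.82 to 1.17). In NK cells it was at 12.01 and 36.1 CPM (1.27, 0.79 to 1.75), or 0.82 (-0.12 to 1.80) in Y-linked NK cells, which ends the 2-fold difference, and in B cells at 30.6 and 57.6 CPM (0.82, 0.49 to 1.15). Lymphocytes thus had the 3 highest Tfrc ratios as gated. This order did not hold in Y-linked cells. There B cells were at 1.61 and tumor or biliary epithelial cells at 1.19, above NK cells (0.82) and T cells (0.46). Neutrophils were the exception in direction, at 23.2 and 18.4 CPM with an interval that held 0 (-0.66 to 0.13) and a ratio of 0.04 under median-of-ratios scaling.

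Within T cells Tfrc was higher with anti–PD-1 in each subset formed. Cells with a Cd8a or Cd8b1 UMI gave 16.5 and 55.4 CPM (1.49, 1.16 to 1.82), cells with a Cd4 and no Foxp3 UMI 32.4 and 52.4 CPM (0.62), and cells with a Foxp3 UMI, the factor of regulatory T cells, 29.1 and 50.3 CPM (0.70). Cells with a UMI of the cycle genes Mki67 or Top2a gave 31.1 and 50.5 CPM (0.62), and cells without one 19.99 and 51.5 CPM (1.18). A cell without such a UMI may still be cycling at this depth. The largest T cell cluster was cluster 6 in PBS (31.8% of the gate) and cluster 4 in anti–PD-1 (30.8%), with Tfrc at 19.7 and 26.7 CPM within cluster 6 and 20.3 and 62.8 CPM within cluster 4. In Y-linked T cells the ratio was smaller, at 0.46 (0.06 to 0.87). Within the PBS library alone, Tfrc was at 24.5 CPM in 1376 Xist T cells and 38.7 CPM in 350 Y-linked T cells. The log2 ratio of the latter over the former was 0.57 (0.11 to 1.01). The part of this difference in the T cell subsets was not tested.

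In Kupffer cells Tfrc was at 21.4 and 28.3 CPM (0.33, 0.04 to 0.63), and within Y-linked cells it was -0.31. Macrophages gave 8.37 and 16.9 CPM (0.71, 0.54 to 0.88), with the 2 Kupffer marker subsets at 0.51 and 0.53. Tumor or biliary epithelial cells held the highest PBS level, 50.6 CPM, and 58.6 CPM in anti–PD-1 (0.19, -0.04 to 0.42). In their Y-linked cells the ratio was 1.19.

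**Figure D5:**
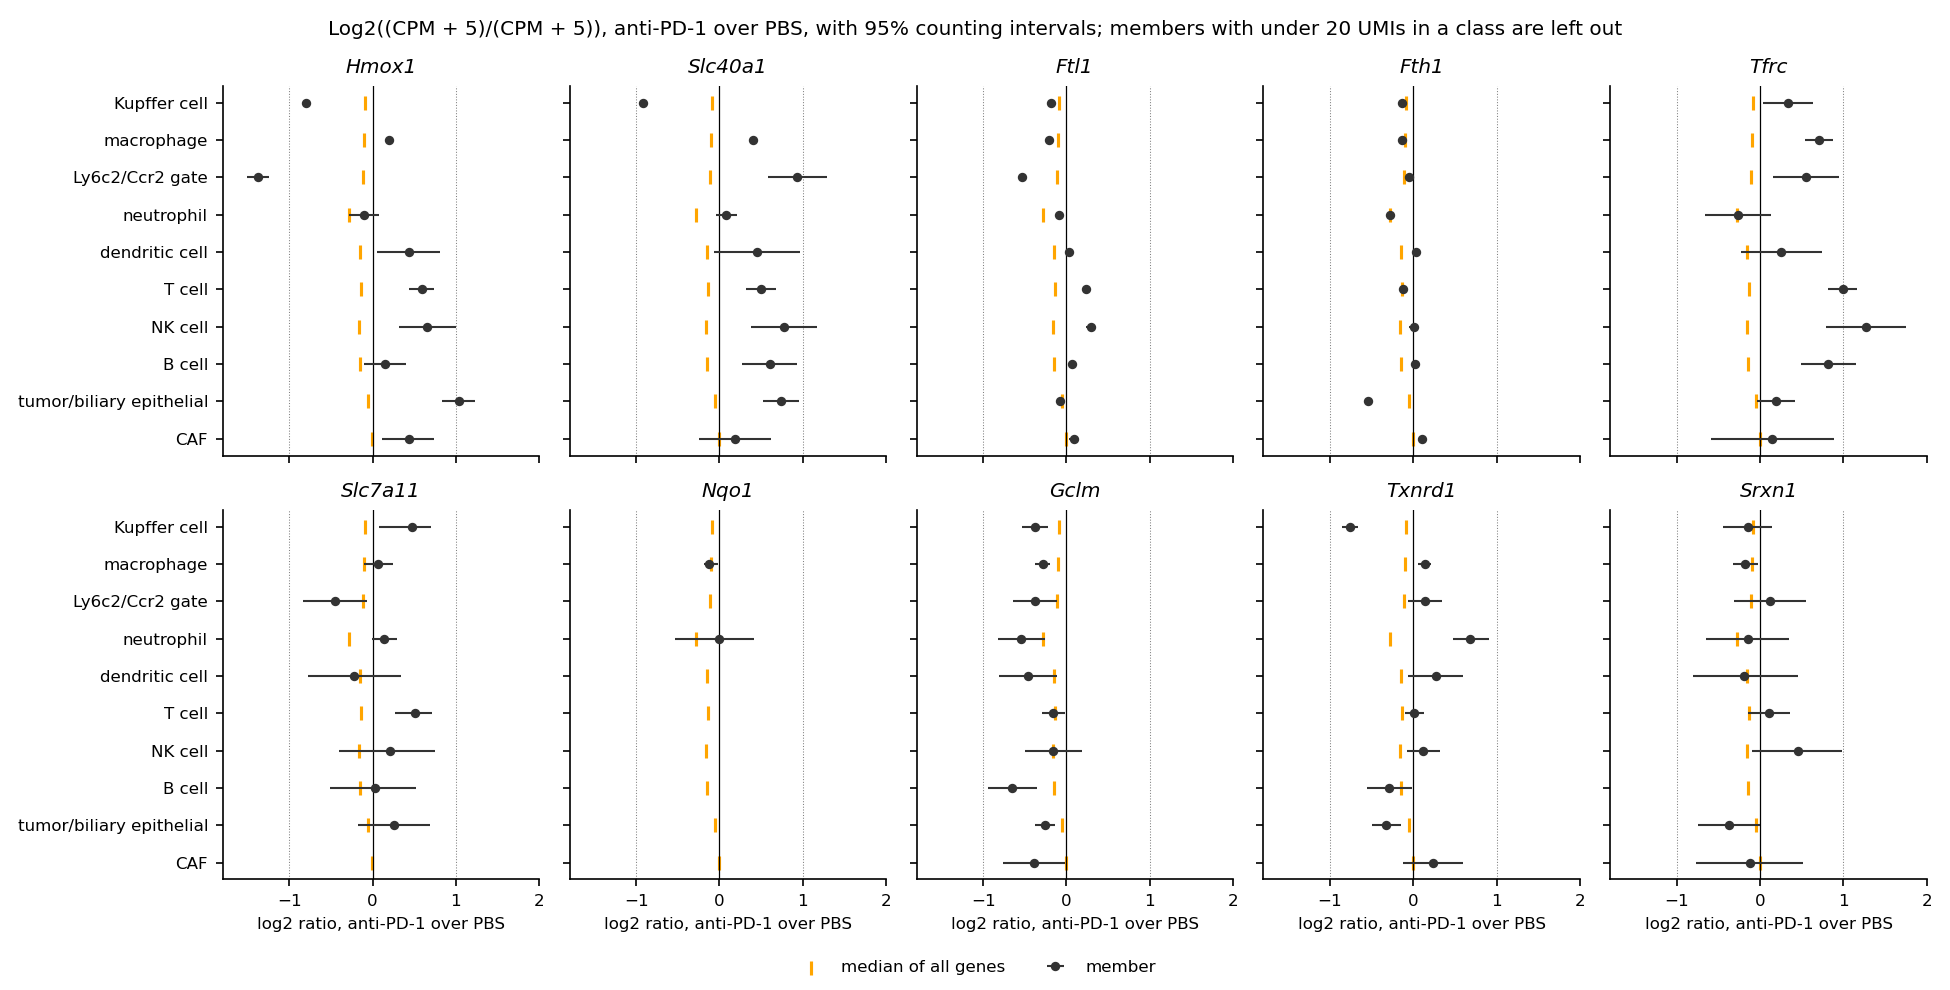
Log2((CPM + 5)/(CPM + 5)), anti–PD-1 over PBS (horizontal axis), of each measured gene in the 10 classes (rows) with 95% counting intervals; orange ticks mark the median over all genes of the class and dotted lines a 2-fold difference. Gclm lies below 0 in 10 of 10 classes (above 0 in T and NK cells under median-of-ratios scaling) and Tfrc above 0 in 9, while Hmox1 runs from -1.37 to 1.03. The orange ticks also lie below 0 in every class.

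Among the NRF2 targets of thiol metabolism, Gclm was lower with anti–PD-1 in 10 of 10 classes, with 9 intervals below 0, and the direction turned in T and NK cells under median-of-ratios scaling (0.03 and 0.02) and in Y-linked NK cells, Ly6c2/Ccr2-gated cells and CAFs (0.02, 0.19 and 0.38). Per class, 24.7% (neutrophils) to 49.1% (CAFs) of all measured genes were higher with anti–PD-1, so a lower value was the more common direction. Gclm was lowest in ratio in B cells, at 57.7 CPM (48.4 to 68.3) and 35.0 CPM (30.3 to 40.2), or -0.65 (-0.94 to -0.36), and in neutrophils, at 58.8 and 38.8 CPM (-0.54). Its level was highest in tumor or biliary epithelial cells, 244 and 203 CPM (-0.26), followed by Kupffer cells, 124 and 94.7 CPM (-0.37). In T and NK cells, at -0.16 in both, the ratio was near the class median over all genes.

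Txnrd1 differed in direction between classes. Against -0.76 in Kupffer cells it stood at 0.69 (0.47 to 0.91) in neutrophils, at 86.6 CPM (74.7 to 99.8) in PBS and 142 CPM (134 to 152) in anti–PD-1. Within the main neutrophil cluster (93.3% and 77.0% of the gate) it was at 78.9 and 132 CPM. In tumor or biliary epithelial cells it was lower, at 119 and 93.9 CPM (-0.32, -0.50 to -0.15), and in T cells it was level at 85.1 and 85.7 CPM (0.01, -0.10 to 0.12).

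Slc7a11 was highest in neutrophils. Neutrophils held 41.4% of its UMIs in PBS and 71.4% in anti–PD-1, at 201 CPM (183 to 221) and 222 CPM (211 to 233), which differed by 0.14 on the log2 scale (-0.01 to 0.29). The next highest class, Ly6c2/Ccr2-gated cells, held 23.5 and 15.8 CPM (-0.45). There the direction turned with Leiden classes (0.07) and in Y-linked cells (1.37). Over all kept cells Slc7a11 was at 13.5 and 28.3 CPM, and the kept cells included 1247 and 2920 neutrophils. In T cells the 1.53 and 4.33 CPM rested on 17 and 70 UMIs and were as low as in most other classes, while the neutrophil gene S100a9 there was at 94.9 and 345 CPM.

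Srxn1 and Nqo1 were low. Srxn1 ran from 1.92 to 24.9 CPM, highest in Kupffer cells (24.9 and 21.9 CPM) and macrophages (24.3 and 20.9 CPM), and was lower with anti–PD-1 in 6 of 9 classes, with 2 intervals below 0. Only 24.7% (neutrophils) to 49.1% (CAFs) of all measured genes were higher per class, so this count does not set Srxn1 apart. The direction turned in neutrophils under median-of-ratios scaling (0.09), in macrophages with no upper limit on detected genes or without Kupffer markers (0.03 in both), in dendritic cells under the stricter gate (0.03) and in CAFs after thinning or in Y-linked cells (0.61 and 0.70). Of the 3 classes where it was higher, it turned in Y-linked T and NK cells (-0.08 and -0.66) and in Ly6c2/Ccr2-gated cells after thinning (-0.05) or with no upper limit on detected genes (-0.04). Nqo1 was measured in 2 of the 10 classes, at 2.28 and 2.26 CPM in neutrophils and 0.64 and 0.17 CPM in macrophages. The direction of Nqo1 in macrophages turned with Leiden classes and after thinning, to at most 0.06. In neutrophils Nqo1 ran from -0.09 to 0.65 over the alternatives. Most of its UMIs in PBS came from endothelial cells (99 of 171, or 57.9%), a class with 577 and 123 cells that was not compared; the anti–PD-1 library held 30 there of 76.

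Genes of the pathway around the members were taken from fixed lists, and their counts in Kupffer cells stand beside 37.5% of all measured genes that were higher there. The 6 NRF2 and heme-sensing regulators had medians above 0 in 9 of 10 classes (-0.05 in neutrophils to 0.62 in NK cells). In Kupffer cells 3 were higher and 3 lower. Of the small Maf genes, partners of NRF2 and BACH1, Maff was at 7.80 and 30.8 CPM (1.48) and Mafk at 19.0 and 47.4 CPM (1.12). Mafg, also a small Maf gene, was lower at 63.6 and 52.3 CPM (-0.26, -0.46 to -0.05). Nfe2l2, the gene of NRF2, was at 329 and 409 CPM (0.31). Maff and Mafk were also higher in macrophages (1.38 and 1.39) and T cells (1.54 and 0.93). In CAFs Mafk was at -0.04. The 17 other NRF2 targets had medians from -0.15 (neutrophils) to 0.25 (CAFs). In Kupffer cells 6 were higher and 11 lower, with thioredoxin (Txn1) at 1182 and 1644 CPM (0.48) and the efflux pump Abcc1 at 75.5 and 43.0 CPM (-0.75). The list median of -0.03 in Kupffer cells lay close to the -0.09 of all genes.

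The 18 other iron handling genes had medians from -0.20 (NK cells) to 0.09 (tumor or biliary epithelial cells). In Kupffer cells 7 of 17 measured were higher and 10 lower, with transferrin (Trf) at 1149 and 645 CPM (-0.83) and Hfe, a partner of the transferrin receptor, at 308 and 201 CPM (-0.60). In neutrophils Fbxl5, the iron sensor that removes iron regulatory protein 2, was at 608 and 923 CPM (0.60), and Ireb2, the gene of that protein, at 49.2 and 27.0 CPM (-0.76). The 10 genes of heme and hemoglobin uptake and turnover had medians from -0.24 (CAFs) to 0.30 (NK cells), and 3 were higher and 7 lower in Kupffer cells. Haptoglobin (Hp) was there among the higher, at 34.4 and 80.4 CPM (1.12), and it was also higher in T cells, at 42.1 and 78.1 CPM (0.82). Hp was at 1369 and 2175 CPM in neutrophils and 641 and 1503 CPM in tumor or biliary epithelial cells. The neutrophil markers summed to 332 and 928 CPM in Kupffer cells and 314 and 1062 CPM in T cells. The part of free RNA in these Hp differences was not tested.

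Several values moved with the library across classes. The 14 dissociation stress genes had medians above 0 in 10 of 10 classes (0.21 in neutrophils, where 7 were higher and 7 lower and 24.7% of all measured genes were higher, to 2.00 in CAFs; 1.19 in Kupffer cells, where 14 were higher). Fosb and Atf3 were higher in 10 of 10 classes, while Jun was lower in 5, from -1.93 in neutrophils to -0.15 in NK cells (Jun was named after its values were seen), and the 15 interferon-gamma response genes from 0.24 (B cells) to 2.42 (tumor or biliary epithelial cells; 1.47 in Kupffer cells). Hemoglobin and red cell genes summed in Kupffer cells to 4.39 and 41.3 CPM but in NK cells to 516 and 65.2 CPM, with class medians from -2.58 to 2.08. Acinar enzyme genes, of the pancreas, had medians from 0.67 to 2.78 in 9 classes where they were measured. The part of handling stress, red cell RNA and interferon response in the member differences was not tested.

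Over the 20 sums of class and library, the genes most like Hmox1 were Pla2g15 (Pearson r 0.96), Adgre1 (0.96), Slc7a8 (0.96), Ctsb (0.95) and Mertk (0.95), and those most like Slc40a1 were Gm13431 (0.93), Vsig4 (0.93), Clec4f (0.92), Stab2 (0.92) and Mmp27 (0.92). The r between Hmox1 and Slc40a1 was 0.84. These sums share libraries and the Kupffer and macrophage classes dominate them, so the values describe a shared distribution over classes in 13358 genes.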

How the data were processed

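The authors deposited a matrix of unnormalized UMI counts for each library, made with the Singleron software against mm10 (version, annotation, strand and shared-read handling not given in the sources used here), from the GEXSCOPE kit. The submitters' processing notes also name Seurat 4.3. The study's SCTransform normalization and integration were not repeated. Groups came from the sample labels. The members and lists were chosen with earlier results of these data known.

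Cells with 500 to 5000 detected genes and at most 10% mt- UMIs were kept. A marker counted as present in a cell where its UMIs per 10000 exceeded the mean over cells. A cell took the class with the highest share of markers present, at least 2, and ties (300 and 514 cells) were left out. The markers were fixed first and the scoring rule was set after seeing the data. UMIs were summed per library and class (numpy 2.4.6, scipy 1.17.1, pandas 2.3.3). All members are named in every class with at least 200 cells in both libraries. Of each list and class at most 4 genes with the largest absolute ratio, among those with at least 50 UMIs in a library, could be named, Timd4, Spic, Vsig4 and other marker genes being given as checks. Scrublet's automatic threshold marked 0 cells and was not used; leaving out the 5% of cells with the highest scores (777 and 818 cells) was an alternative. Leiden clusters (28, leidenalg 0.10.2) served as another. UMIs are counted molecules, yet intervals cover counting error only. Positions and hairpins came from GENCODE vM21 on GRCm38, which held 32445 of the 32589 gene identifiers. The ratio and its interval were run on simulated Poisson sums, the model that the interval assumes. That run checks the calculation only and does not cover spread between cells or libraries.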

Additional observations from a re-analysis of the deposited data

Results flagged for a closer look

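Pairs of classes in which a member moved in opposite directions are listed here; with 1 library per group, none of these differences between classes was tested. Hmox1 was higher with anti–PD-1 in tumor or biliary epithelial cells (log2 ratio 1.03, 0.84 to 1.23) and lower in Ly6c2/Ccr2-gated cells (-1.37, -1.50 to -1.24). The first went with a higher Clec4f level in the same cells and was 0.40 with no upper limit on detected genes. The second turned in cells with Y-linked UMIs but none of Xist and was -0.10 with Leiden classes. Slc40a1 was higher in Ly6c2/Ccr2-gated cells (0.94, 0.58 to 1.29) and lower in Kupffer cells (-0.92, -0.95 to -0.89). The former was 0.34 with Leiden classes, and Clec4f was at 21.3 and 83.5 CPM in the same cells. Txnrd1 was higher in neutrophils (0.69, 0.47 to 0.91) and lower in Kupffer cells (-0.76, -0.85 to -0.67). Over the 10 alternatives its neutrophil ratio stayed between 0.56 and 1.06.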

How the results depend on the processing

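No paired analysis was possible because each group is 1 library, and no replicate could be left out. Over the 10 alternatives taken in all classes, Kupffer Hmox1 stayed between -1.09 and -0.54, Slc40a1 between -1.09 and -0.73 and Txnrd1 between -0.97 and -0.63. The scoring rule of the gate behind these alternatives was set after seeing the data. The median log2 ratio over the members moved beyond its counting interval with median-of-ratios scaling in T cells (0.43), neutrophils (0.20), Ly6c2/Ccr2-gated cells (0.093), macrophages (0.13) and Kupffer cells (-0.059); with Leiden classes in B cells (0.28), Ly6c2/Ccr2-gated cells (0.069), macrophages (-0.24) and tumor or biliary epithelial cells (0.023); within Y-linked cells without Xist in B cells (-0.39), Ly6c2/Ccr2-gated cells (0.52), macrophages (-0.14), dendritic cells (-0.16) and tumor or biliary epithelial cells (-0.23); and in Kupffer cells with all 6 markers (-0.16). Medians as reported were 0.23, 0.29, 0.05, -0.10, -0.05, -0.03, -0.18, 0.04, -0.08 and 0.13 for T, NK and B cells, neutrophils, Ly6c2/Ccr2-gated cells, macrophages, Kupffer, dendritic and epithelial cells and CAFs. The 3 pairs past 2-fold became 7 with a pseudocount of 1 CPM, 6 with median-of-ratios scaling, 9 after thinning to 1000 UMIs and 10 within Y-linked cells without Xist, where fewer cells entered; the cause was not tested otherwise. All 3 were among the pairs of the first 3 of these settings, and 0 of the 3 among the 10. With at most 20% mt- UMIs 2 pairs were past 2-fold, both among the 3, and 2 of the 3 were also past it with no upper limit on detected genes and with Leiden classes. Hmox1 in Ly6c2/Ccr2-gated cells reversed within Y-linked cells without Xist (0.48).

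Of 57 pairs with an interval off 0, the direction turned in 6 with median-of-ratios scaling, 2 with no upper limit on detected genes, 8 with Leiden classes, 4 after thinning and 11 within Y-linked cells without Xist; it turned in 0 with the other 5 alternatives. The 40 list medians computed with no filter on low counts and with at least 100 UMIs per gene stayed within their intervals under both. The alternatives (all 6 Kupffer markers, a Clec4f UMI, no precursor gene UMI, no Kupffer marker) were added and chosen after seeing the data. Depth limits Nqo1, which rests on at most 20 UMIs per library in the classes where it was measured, and Slc7a11 in Kupffer cells (4 and 29 UMIs) and T cells (17 and 70 UMIs).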

Other observations

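Genes of ferroptosis, an iron-dependent form of cell death through lipid peroxides, had class medians from -0.27 (neutrophils, 2 of 7 higher, where 24.7% of all measured genes were higher and their median was -0.28) to 0.20 (NK cells, 5 of 7 higher, against 32.1% of genes and a median of -0.16), and the lipoxygenase gene Alox15 lay far from them. In macrophages it was at 9.46 CPM in PBS and 173 CPM in anti–PD-1 (297 and 3113 UMIs; log2 ratio 3.63, 3.51 to 3.74), and in Ly6c2/Ccr2-gated cells at 0.72 and 65.3 CPM (3 and 227 UMIs; 3.62, 3.28 to 3.79). In Kupffer cells it was at 24.4 and 38.5 CPM (0.57, 0.29 to 0.85). Alox15 was also higher in B cells (0.85 and 18.8 CPM, 2.03) and T cells (0.72 and 6.81 CPM, 1.05). In tumor or biliary epithelial cells it was lower (13.9 and 11.6 CPM, -0.19). Its values with Leiden classes and in Y-linked cells are not given here, and the part of free RNA was not tested.

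The 10 amino acid response genes, targets of ATF4, had medians above 0 in 9 of 10 classes (-0.06 in NK cells to 0.48 in Ly6c2/Ccr2-gated cells). Slc3a2, the heavy chain that pairs with the Slc7a11 transporter, was at 99.4 and 169 CPM in neutrophils (0.73, 0.53 to 0.94), where Slc7a11 itself was at 0.14. The 12 other oxidative stress enzymes had medians from -0.22 (neutrophils) to 0.18 (macrophages), with the mitochondrial superoxide dismutase Sod2 at 124 and 188 CPM in macrophages (0.58) and catalase (Cat) at 393 and 651 CPM in tumor or biliary epithelial cells (0.72). The 7 genes of NADPH oxidase and nitric oxide synthase had medians from -0.21 (Ly6c2/Ccr2-gated cells, 0 of 7 higher, against 37.8% of all measured genes) to 0.53 (tumor or biliary epithelial cells, 6 of 6 measured higher, against 43.1% of genes). In those epithelial cells the neutrophil markers summed to 291 and 1016 CPM, and their part in that median was not tested.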
